A study of Mus musculus with 4 samples.

Results

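The collagen genes of the mouse are described here by the H3K36me3 and H3K9me3 regions that they hold in mouse ES cells. They were taken from the annotation by name, as the autosomal protein-coding genes whose symbol is Col, a number, the letter a and a number. This gave 41 of the 21418 autosomal protein-coding genes. The 2 collagen genes of chromosome X, Col4a5 and Col4a6, lay outside the rule, and neither held a bin of either list.

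Chromatin immunoprecipitation and sequencing (ChIP-seq) was performed for each mark in wild-type (WT) ES cells of strain 129S1/SvImJ and in ES cells with the H3.3 G34R substitution, all below passage 20. In the G34R cells, a single targeted copy of H3f3a, one of the genes of the histone variant H3.3, carries the glycine to arginine change and is read from its own promoter. Each of the 4 groups was 1 library, and 1 list of enriched regions was deposited per mark, with 31593 regions for H3K36me3 and 32502 for H3K9me3. A region entered a list when it was enriched in WT or in G34R cells, so that the cell types cannot be told apart, no read values or depth stand behind a region, and no spread between replicates exists. The values below are therefore positions and counts of listed bins of 200 bp. The 95% Wilson intervals given with them cover counting error only, and neighbouring bins are not independent. No p-value was computed. As a look at the cell type, 8 genes used in ES cells, Pou5f1, Sox2, Nanog, Sall4, Dnmt3b, Esrrb, Tdgf1 and Lin28a, were examined after the lists had been seen, and 8 of 8 held H3K36me3 while 2 held H3K9me3. Of all autosomal protein-coding genes, 35.2% and 41.4% did.

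Collagens are proteins of the extracellular matrix in which chains wind into a triple helix. The helix needs a glycine at every position where the chains meet, so that its sequence is a run of Gly-X-Y repeats, often with proline at X or Y. Fibrillar collagens build the fibrils of bone, cartilage, skin and tendon. Network collagens build sheets such as the basement membrane, and the fibril-associated collagens with interrupted helices (FACIT) decorate fibrils. H3K36me3 is laid down along the bodies of genes while they are transcribed, and H3K9me3 is best known from heterochromatin and silenced sequence. Most collagens are made by mesenchymal and epithelial cells rather than by pluripotent cells.

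The repeat is visible in the genome sequence. Glycine is encoded by GGN (N is any base), and in the annotated coding sequence a median of 24.04% of the codons of a collagen gene were GGN, against 6.04% in the other autosomal protein-coding genes. Proline codons, CCN, made up 16.2% against 5.31%. The median G+C of the coding sequence was 59.5% in collagen genes and 51.9% in other genes. Collagen genes were also cut into many small exons, with a median of 48 exons per gene against 6. Of their 1895 coding exons, 464 (24.5%) were exactly 54 bp long, against 0.421% of those in other genes, and 62.5% had a length that is a multiple of 9 bp, against 14.04%.

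A pair of bins shows this repeat in a gene with H3K9me3 and in a gene without either mark. They were chosen after the lists had been seen, as the bin with the most GGN codons among the H3K9me3 coding bins of Col2a1, the chain of the main cartilage collagen and the member with the most such bins, and among all coding bins of Col11a1, the unmarked member with the lowest coding G+C, whose product joins type II collagen in cartilage fibrils. Bins in the start window or with untranslated sequence were left out of the choice. Capitals mark the glycine codons GGN, and both are written 5′ to 3′ on the strand of the gene (NCBIM37).
Col2a1, chr15:97811201-97811400, minus strand, in the H3K9me3 list: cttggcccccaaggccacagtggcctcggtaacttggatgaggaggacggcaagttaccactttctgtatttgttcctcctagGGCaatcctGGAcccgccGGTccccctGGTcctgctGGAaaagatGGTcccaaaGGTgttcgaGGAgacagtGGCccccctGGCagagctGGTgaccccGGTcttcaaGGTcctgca
Col11a1, chr3:113870401-113870600, plus strand, in neither list: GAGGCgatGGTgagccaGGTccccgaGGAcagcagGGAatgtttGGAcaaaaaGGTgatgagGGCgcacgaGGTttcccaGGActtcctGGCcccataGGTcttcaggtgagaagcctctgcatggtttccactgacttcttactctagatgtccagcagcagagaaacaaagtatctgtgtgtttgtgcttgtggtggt
The Col2a1 bin held 117 coding bases with 13 GGN codons and 60% G+C, and the Col11a1 bin held 107 coding bases with 12 GGN codons and 53% G+C. In both, a glycine codon recurs every 9 bases through the exon, and in Col11a1 a further glycine codon stands between 2 of these.

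A further pair of bins comes from the listed regions richest in G+C among those with a coding bin outside the start window. For H3K36me3 this was a region in Col17a1, which encodes a transmembrane collagen of the hemidesmosome, and for H3K9me3 a region near the start of the fibrillar gene Col27a1. The central bin of each region is shown, with coding bases in capitals.
Col17a1, chr19:47723201-47723400, minus strand, in the H3K36me3 list: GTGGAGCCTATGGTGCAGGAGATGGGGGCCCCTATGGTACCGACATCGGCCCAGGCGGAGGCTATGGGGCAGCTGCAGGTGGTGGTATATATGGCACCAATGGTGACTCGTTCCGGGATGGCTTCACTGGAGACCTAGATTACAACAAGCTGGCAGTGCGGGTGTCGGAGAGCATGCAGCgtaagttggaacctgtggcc
Col27a1, chr4:62876201-62876400, plus strand, in the H3K9me3 list: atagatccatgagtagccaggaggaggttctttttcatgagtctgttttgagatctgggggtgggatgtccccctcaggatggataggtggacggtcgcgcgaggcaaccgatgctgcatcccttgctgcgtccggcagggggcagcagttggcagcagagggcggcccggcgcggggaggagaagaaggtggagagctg
The Col17a1 bin had 59.5% G+C and 180 coding bases. The Col27a1 bin lay in the first intron, 1.16 kb from the gene start, with 61.5% G+C, 11 CpG dinucleotides and 0 coding bases.

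H3K36me3 was rare in collagen genes. It was found in 4 of the 41 (9.76%, interval 3.86 to 22.6), against 35.2% of all autosomal protein-coding genes. Collagen genes are long, with a median of 107.3 kb against 15.5 kb in other genes, so each was also set beside the non-collagen genes whose length was within a factor of 1.2, which were 198 to 2066 genes per member. Those genes gave an expected 16.2 members with H3K36me3, and the ratio of observed to expected was 0.247 (0.0979 to 0.572). Of the 23270 bins of collagen genes, 177 (0.761%, 0.657 to 0.881) were in the H3K36me3 list, against 5.98% of the bins of other genes. Col18a1 alone held 163 of these bins, and without it the covered share was 0.0617%.

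H3K9me3 was found in most of them. Of the 41 genes, 33 held H3K9me3 (80.5%, 66.0 to 89.8), against 41.4% of all genes and 68.1% of genes of the same length. The ratio to genes of the same length was 1.18, and its interval of 0.969 to 1.32 includes 1. It also included 1 with length matched more closely (1.18, 0.966 to 1.31 for a factor of 1.1). The interval excluded 1 with a wider length window (1.22, 1.003 to 1.36 for a factor of 2), with summed exon length matched (1.35, 1.104 to 1.502) and with regions of at least 1 kb (1.39, 1.07 to 1.65). H3K9me3 covered 1152 bins or 4.95% (4.68 to 5.24) of the bins of collagen genes, against 3.53% of the bins of other genes. The mean over the 41 genes was 6.35% of a gene, against 3.70% in genes of the same length. This mean includes Col2a1 at 44.5% and was not computed without it. Col23a1 held 191 of the bins, and without it the covered share was 4.41%. Of the members, 29 had more H3K9me3 bins than 50% of the genes of their length, and 9 had more than 90% of them.

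Both marks were present in 4 collagen genes, since every member with H3K36me3 also held H3K9me3. This is 9.76%, against 12.6% of all genes and 22.2% of genes of the same length, and the ratio of 0.439 had an interval of 0.174 to 1.02. A bin in both lists was found in 3 members, Col18a1, Col13a1 and Col23a1 (7.32%), against 7.43% of all genes and 13.0% of genes of the same length, a ratio of 0.563 (0.194 to 1.496). Together these 3 genes held 19 such bins.

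**Figure D1:**
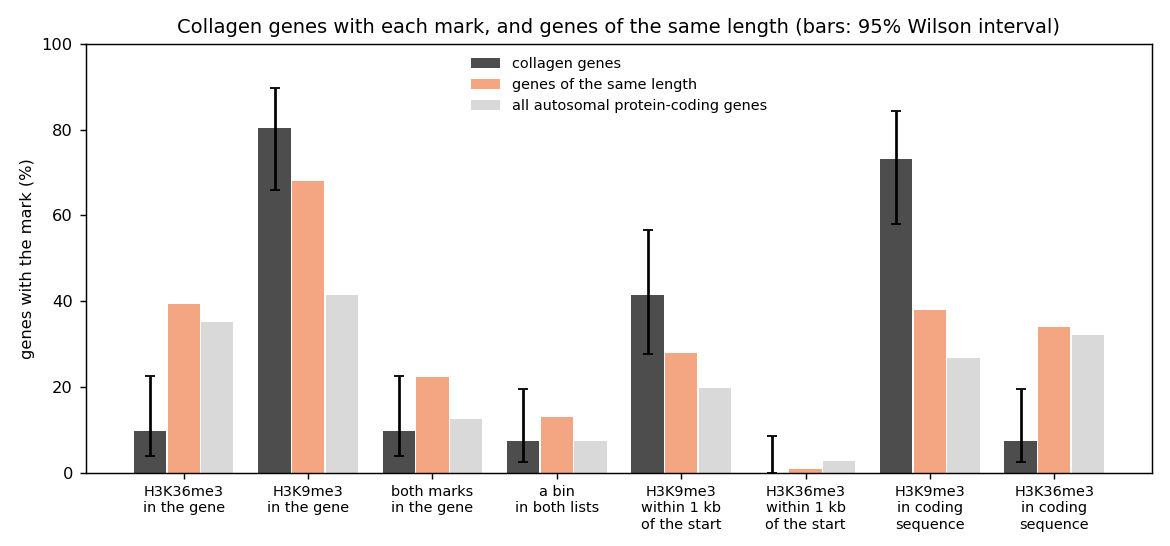
Percentage of genes (vertical axis) with each mark in the gene, in a shared bin, near the start or in coding sequence, for the 41 collagen genes (dark bars, with 95% Wilson intervals), for non-collagen genes of the same length (orange) and for all autosomal protein-coding genes (light grey). H3K36me3 was found in 9.76% of collagen genes against 39.4% of genes of the same length, and H3K9me3 in 80.5% against 68.1%.

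The fibrillar collagens, which form the classical fibrils, held no H3K36me3 in any of 11 genes and H3K9me3 in 8. Genes of the same length gave an expected 4.52 and 7.09. Their H3K9me3 bins numbered 65 in Col2a1, 35 in Col27a1, 30 in Col5a3, 24 in Col11a2, 11 each in Col24a1 and Col1a1, 8 in Col5a1 and 6 in Col1a2. Col3a1, Col5a2 and Col11a1 held neither mark. Col1a1 and Col1a2, whose products assemble into type I collagen of bone and skin, carried H3K9me3 over 12.9% and 3.26% of their length. Col3a1, which makes the type III collagen of vessel walls, and Col5a2 are neighbours 24.6 kb apart on chromosome 1, and both were empty.

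The network collagens include the basement membrane chains of type IV. H3K9me3 was found in 6 of 7 and H3K36me3 in 0, where genes of the same length gave an expected 4.76 and 2.73. Col4a4 held 69 H3K9me3 bins, Col4a2 46, Col4a1 35, Col8a2 21, Col8a1 13 and Col4a3 8, while Col10a1, the collagen of hypertrophic cartilage and the shortest member at 7.1 kb, held none.

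All 6 beaded filament genes, which encode the chains of type VI collagen that forms microfibrils around cells, held H3K9me3 and none held H3K36me3. Genes of the same length gave an expected 3.83 with H3K9me3 and 2.60 with H3K36me3. Col6a5 had 59 bins, Col6a6 55, Col6a3 50, Col6a4 14, Col6a1 9 and Col6a2 6. In all 6, coding bins outside the start window were among them, where genes of the same length gave an expected 1.63 and genes matched in exon number too 2.25. Such bins were found in 6 of the 9 FACIT genes (expected at the same length 2.61), 6 of the 11 fibrillar (3.10), 3 of the 7 network (2.08), 3 of the 4 transmembrane (1.502) and both multiplexin genes (0.614). Col7a1, which encodes the anchoring fibrils of skin and has 118 exons, held neither mark.

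Of the 9 FACIT genes, 6 held H3K9me3 and none held H3K36me3, where genes of the same length gave an expected 6.06 and 3.53. Col19a1 had 63 H3K9me3 bins, Col14a1 33, Col16a1 18, Col22a1 14, Col12a1 13 and Col9a3 11. Col9a1, Col9a2 and Col20a1 had no bin of either list. The type IX chains, which sit on cartilage fibrils, therefore differed, with H3K9me3 in Col9a3 and neither mark in Col9a1 and Col9a2.

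H3K36me3 was found in 3 of the 4 transmembrane collagens, Col13a1, Col17a1 and Col23a1, and in 1 of the 2 multiplexins, Col18a1. Genes of the same length gave an expected 1.196 and 0.797. Multiplexins are basement membrane collagens with interrupted helices, and the C-terminal fragment of the Col18a1 product is endostatin. All 6 genes of these classes held H3K9me3, against an expected 3.29 of the 4 and 1.53 of the 2, with 191 bins in Col23a1, 91 in Col13a1, 54 in Col25a1, 36 in Col15a1, 16 in Col18a1 and 8 in Col17a1. Col28a1, placed outside these classes, held 29 H3K9me3 bins and no H3K36me3.

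**Figure D2:**
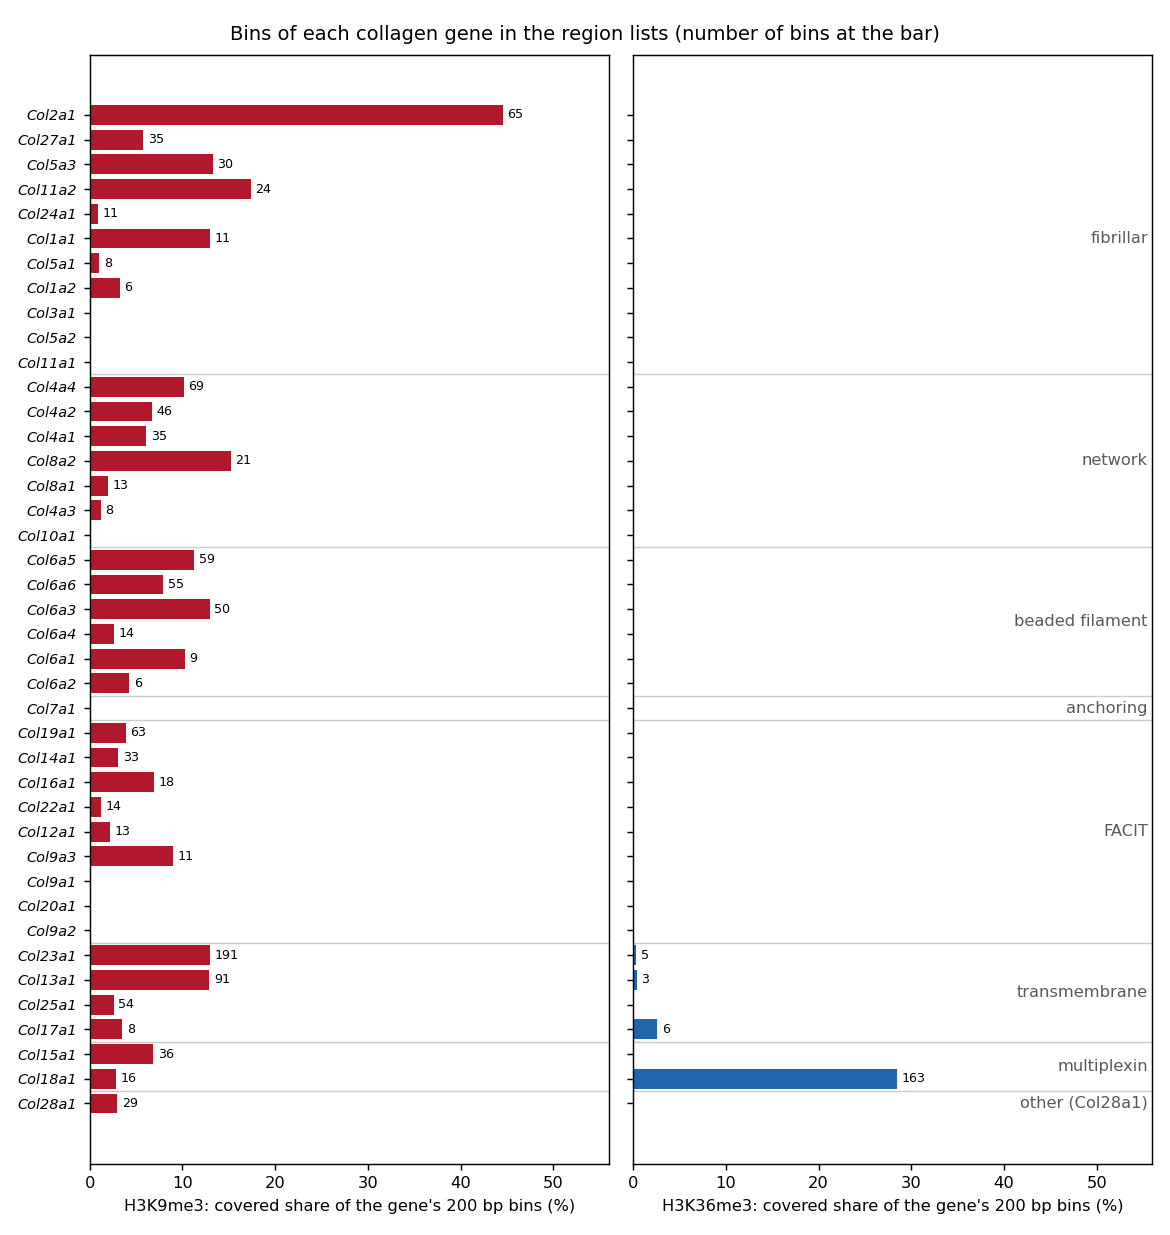
Covered share of each collagen gene in percent of its 200 bp bins, for H3K9me3 (left) and H3K36me3 (right), with the number of listed bins at each bar and genes ordered by class. The longest H3K9me3 bar is that of Col2a1 at 44.5% of the gene, and Col18a1 at 28.5% has nearly all H3K36me3 bins.

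Col18a1 (ENSMUSG00000001435.8, chromosome 10, 76514923 to 76629293, minus strand, 114.4 kb) was the single member with H3K36me3 over much of its body. The 163 bins lay in 19 regions and covered 28.5% of the gene. The gene has protein-coding transcripts that begin at its first base and others that begin 52.6, 52.8, 52.9 and 77.1 kb further in. Before the first of these internal starts, 0 of 264 bins were in the H3K36me3 list. From there to the end of the gene, 163 of 309 bins (52.8%) were in it, and the region nearest to the start lay 53.9 kb from the first base. H3K9me3 was also confined to the later side of Col18a1, with 0 of 264 bins before and 16 of 309 bins (5.18%) after the first internal start. At its end the gene runs for 8825 bp over Slc19a1, a folate carrier gene read from the other strand, and 35 of the 163 bins touch that gene too. ChIP-seq does not tell the strands apart.

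The 16 H3K9me3 bins of Col18a1 formed 3 regions. The region at chr10:76532401-76533600 lay 95.7 kb from the start, 2 of its 6 bins were coding, and 6 of 6 were also in the H3K36me3 list. The region at chr10:76555201-76556400 was intronic and shared 5 of 6 bins with H3K36me3. The region at chr10:76568601-76569400, 59.9 kb from the start, shared none.

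The H3K36me3 of the other members was short. Col17a1 (ENSMUSG00000025064.8, chromosome 19, 47720834 to 47766584, minus strand) held 2 regions of 600 bp near its end, at chr19:47723001-47723600 with 2 coding bins and at chr19:47721001-47721600 in exon sequence outside the coding sequence. Its H3K9me3 lay elsewhere, in 2 regions at 9.58 and 28.2 kb from the start. Col13a1 had 1 H3K36me3 region of 600 bp at chr10:61325801-61326400, inside an H3K9me3 region of 2600 bp. Col23a1 had 1 of 1000 bp at chr11:51250001-51251000, inside an H3K9me3 region of 5000 bp and in an intron. With regions of at least 1 kb only, H3K36me3 was left in 2 genes.

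Col23a1 and Col13a1, both of which encode transmembrane collagens, had the most H3K9me3 bins. Col23a1 (ENSMUSG00000063564.7, chromosome 11, 51103422 to 51397420, plus strand, 294.0 kb) held 36 regions that covered 13.0% of the gene, and genes of its length held a median of 27 bins. Of its 191 bins, 185 were intronic and 1 was coding. The regions began over the gene start, with 67.5% G+C in the first, and were dense between 137 and 169.8 kb from the start. Col13a1 (ENSMUSG00000058806.7, chromosome 10, 61300984 to 61441856, minus strand, 140.9 kb) held 13 regions covering 12.9%, where genes of its length held a median of 13 bins. Its region at the start was 1600 bp wide with 61.4% G+C, and 14 of its 51 coding bins outside the start window (27.5%) were listed.

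Col2a1 (ENSMUSG00000022483.9, chromosome 15, 97806033 to 97835155, minus strand, 29.1 kb) was the most densely covered. H3K9me3 lay on 65 of its 146 bins (44.5%) in 7 regions, while genes of its length held a median of 0 bins, and 99.3% of the 1985 genes compared held fewer. The region over its start, chr15:97829601-97835200, was 5600 bp wide, the greatest width of any H3K9me3 region in a member, equalled by a region of Col19a1. Of its 75 coding bins outside the start window, 33 (44.0%) were listed. The triple helix bin shown above lies in the region chr15:97808601-97811600, in which 13 of 15 bins were coding, and in chr15:97814201-97816000 all 9 bins were coding. The gene has 24 coding exons of 54 bp.

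The fibrillar genes without a bin, Col3a1, Col5a2 and Col11a1, have 24, 24 and 31 coding exons of 54 bp. Their whole-gene G+C was 35.9%, 36.2% and 35.2%, against 54.9% in Col2a1. Among marked fibrillar genes, Col24a1 and Col1a2 had 40.5% and 40.95% G+C with 11 and 6 bins, and Col5a1, Col5a3 and Col27a1, at 51.2%, 51.3% and 51.6% G+C, were covered over 1.04%, 13.3% and 5.78%. Other fibrillar genes with G+C near that of Col2a1 were covered less, with 17.4% in Col11a2 (56.1% G+C) and 12.9% in Col1a1 (54.01% G+C).

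Col19a1, a FACIT gene (ENSMUSG00000026141.7, chromosome 1, 24268729 to 24594311, minus strand, 325.6 kb), held 9 regions, among them an intronic region of 5600 bp at chr1:24424601-24430200 with 41.1% G+C, and a region of 800 bp over its start. Of its 63 bins, 5 had exact copies of their central 50 bases elsewhere in the genome, the most of any member. Col6a5 (ENSMUSG00000091345.1, chromosome 9, 105758400 to 105862974, minus strand, 104.6 kb) held 7 regions with 17 of 80 coding bins (21.3%), of which 2 regions of 3200 and 3600 bp lay 25.6 and 21.8 kb from the start.

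**Figure D3:**
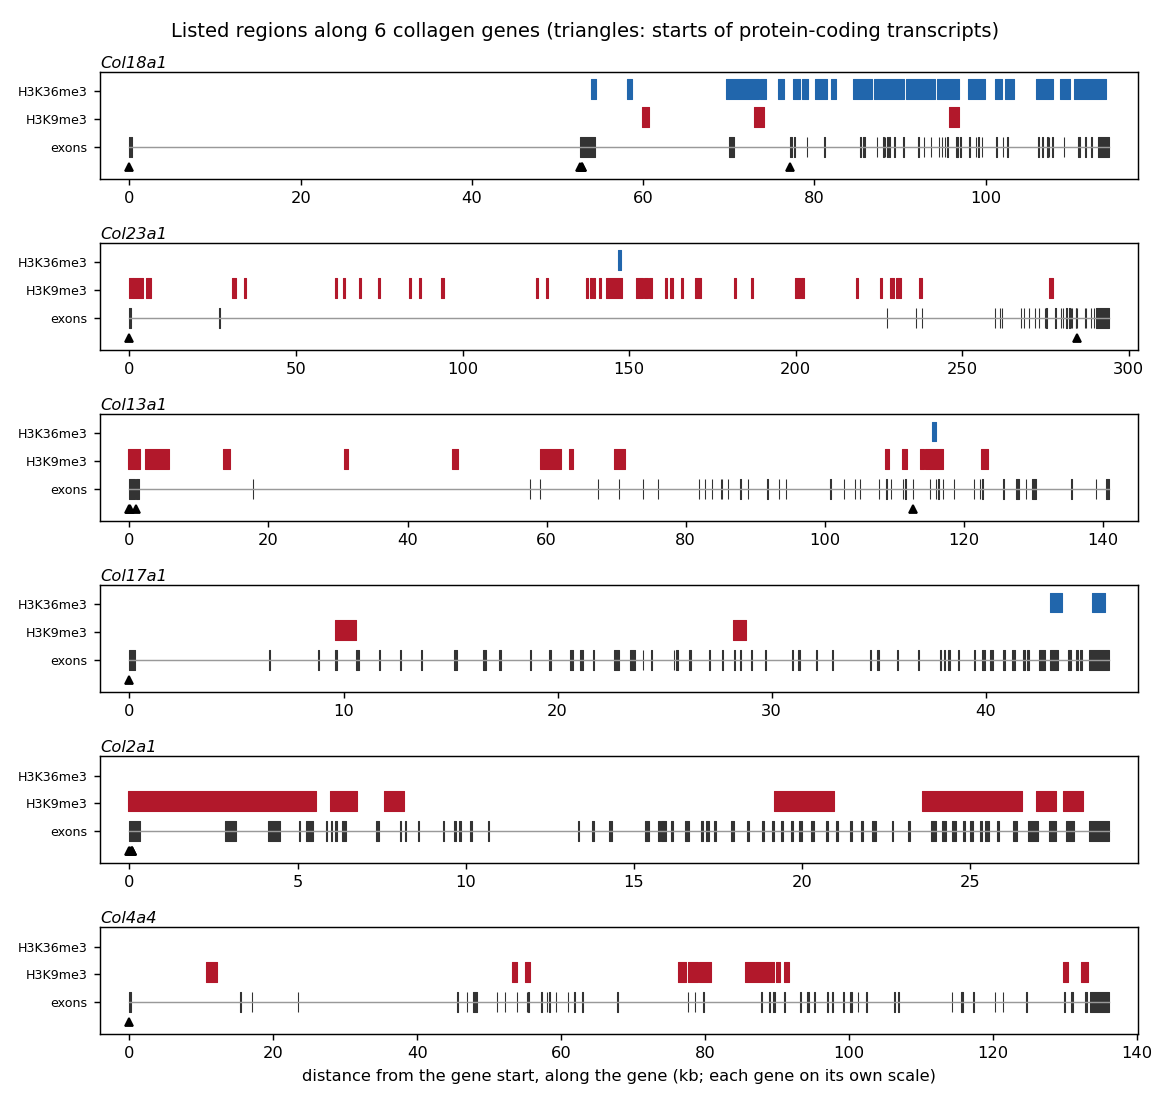
Listed H3K36me3 (blue) and H3K9me3 (red) regions above the exons (dark) of 6 collagen genes, by distance from the gene start in kb, each gene on its own scale, with triangles at the starts of protein-coding transcripts. In Col18a1 no region precedes the internal starts at 52.6 kb, and in Col2a1 a region of 5600 bp covers the start.

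Type IV chains are encoded by pairs of genes that stand head to head and share a promoter. A gene was counted as marked near its start when a region lay within 1 kb on either side of the start. Over these windows the starts of a pair are nearly the same sequence, so that their starts are not independent. The start bins counted inside the genes were almost all different, with 244 distinct among 246. Col4a1 (ENSMUSG00000031502.9, chromosome 8, 11198423 to 11312826, minus strand) and Col4a2 (ENSMUSG00000031503.7, chromosome 8, 11312805 to 11449287, plus strand) overlap by 22 bp, and 1 H3K9me3 region of 4400 bp, chr8:11311401-11315800, with 56.6% G+C, covered both starts. Col4a4 (ENSMUSG00000067158.7, chromosome 1, 82447298 to 82583424, minus strand) and Col4a3 (ENSMUSG00000079465.2, chromosome 1, 82583496 to 82718634, plus strand) begin 71 bp apart, and neither held H3K9me3 within 1 kb of its start. Col4a4 held 11 regions with 69 bins, 16 of them coding, and Col4a3, of nearly equal length, held 2 intronic regions with 8 bins. The first region of Col4a4 lay 10.6 kb from the start, and that of Col4a3 69.1 kb.

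Other neighbours were compared in the same way. Col6a6, Col6a5 and Col6a4, which follow each other on chromosome 9, held 55, 59 and 14 H3K9me3 bins. Col6a2 and Col6a1, 85.2 kb apart on chromosome 10, held 6 and 9. Col9a1 and Col19a1, 9.15 kb apart on chromosome 1, held 0 and 63.

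H3K9me3 lay within 1 kb of the gene start in 17 members (41.5%, 27.8 to 56.6), against 19.7% of all genes and 27.9% of genes of the same length. The ratio to genes of the same length was 1.49 (0.994 to 2.03). Counting each head-to-head type IV pair once, a choice made after seeing the data, 16 of 39 starts (41.0%, 27.1 to 56.6) held it, a ratio of 1.48 (0.976 to 2.04). These were the fibrillar genes Col2a1, Col5a1, Col24a1 and Col27a1, the network genes Col4a1, Col4a2 and Col8a2, Col6a5, the FACIT genes Col9a3, Col12a1, Col14a1, Col16a1 and Col19a1, the transmembrane genes Col13a1, Col23a1 and Col25a1, and Col15a1. Of the 246 bins in the start windows, 79 were listed (32.1%, 26.6 to 38.2), against 14.1% in other genes, not matched in length or G+C. Of the 246, 2 were shared by a pair of genes. H3K36me3 lay within 1 kb of 0 gene starts, against 2.73% of all genes and an expected 0.349 members at the same length. The interval for 0 of 41 reaches 8.57%.

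Each gene was divided into 10 equal parts from its start to its end. H3K9me3 was most frequent in part 1 and again in part 6. In part 1, 9.83% (8.69 to 11.1) of bins were listed, against 6.11% in other genes of at least 10 kb, with bins in 21 members. In part 6 the share was 8.36% (7.31 to 9.56) against 2.75%, with bins in 17 members. Col23a1 gave 45 of these 195 bins, Col19a1 28, Col6a6 25 and Col4a4 21, and without Col23a1 the share was 6.87%. In part 4 it was 2.41% against 3.05%. In other genes H3K36me3 went from 1.46% of bins in part 1 to 8.81% in part 10. In collagen genes it was 0% in parts 1 to 4 and between 1.46% and 2.02% in parts 7 to 10, where parts 7 and 8 held bins of Col18a1 alone.

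**Figure D4:**
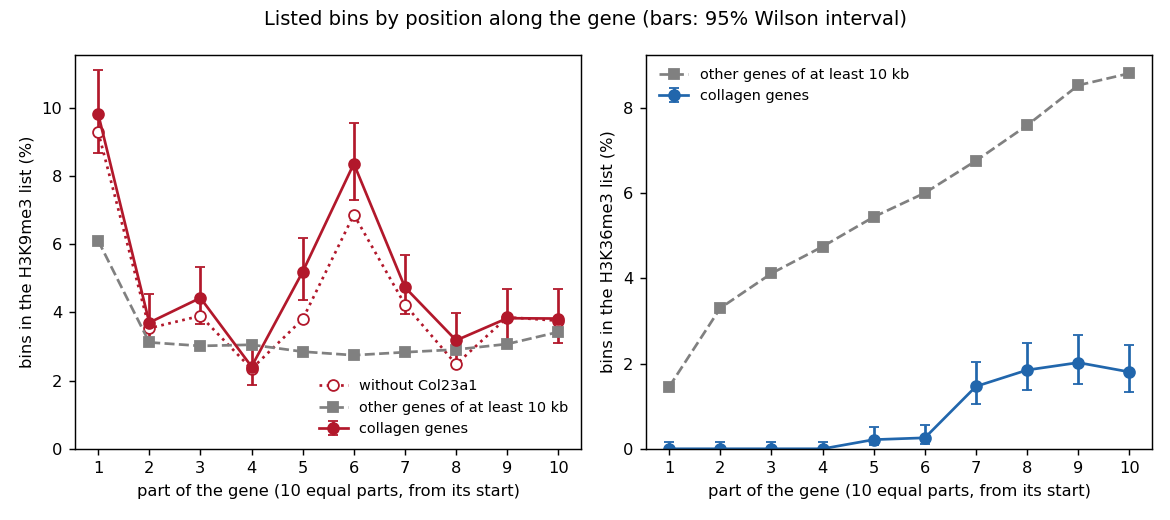
Share of bins in the H3K9me3 list (left) and the H3K36me3 list (right), in percent, by part of the gene (10 equal parts, numbered from its start), for collagen genes (circles, 95% Wilson intervals), for collagen genes without Col23a1 (open circles, H3K9me3 only) and for other genes of at least 10 kb (squares). H3K9me3 reached 9.83% in part 1 and 8.36% in part 6, against 6.11% and 2.75% in other genes.

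The G+C-rich coding exons of the collagen genes are small beside a bin. The 200 bp bins that touch collagen coding sequence outside the start window included much intron, and their median G+C was 51.5%, against 49% in other genes. A G+C of at least 60% was found in 8.10% of these bins and in 8.58% of those of other genes. The coding sequence was G+C-rich as annotated, and the bins in which the marks were measured were 2.5 percentage points above those of other genes.

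H3K9me3 touched coding sequence in 30 members when bins near the start were included (73.2%, 58.1 to 84.3), against 26.8% of all genes and 37.9% of genes of the same length, a ratio of 1.93 (1.53 to 2.22). When the genes compared matched length within a factor of 1.2 and exon number within a factor of 1.5, the ratio was 1.59 (1.27 to 1.82) for the 40 members that could be matched, with 9 or more genes each. Col7a1 had no such gene and held no mark. Under the same matching the ratio for H3K9me3 within 1 kb of the start was 1.76 (1.18 to 2.39), or 1.75 (1.16 to 2.41) with each type IV pair counted once, for H3K9me3 anywhere in the gene 1.23 (1.01 to 1.36) and for H3K36me3 0.190 (0.0754 to 0.439). Outside the start windows 27 members held a coding bin with H3K9me3 (65.9%, 50.6 to 78.4), against 20.1% of all genes and 29.7% of genes of the same length, a ratio of 2.22 (1.70 to 2.64). With exon number matched as well it was 1.62 (1.25 to 1.92) for the 40 members.

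Single bins were compared next. Outside the start windows, 195 of 2654 coding bins were in the H3K9me3 list (7.35%), and coding bins of other genes in the same classes of G+C gave an expected 5.97%. The ratio was 1.23 (1.08 to 1.41). With bins at least 50% coding it was 1.095, and its interval of 0.857 to 1.39 includes 1. Col2a1 held 16.9% of the 195 bins, and without it the ratio over all coding bins was 1.06 (0.916 to 1.23). When only genes that carry H3K9me3 were compared, the direction turned, with a ratio of 0.863 (0.754 to 0.986). Leaving out genes without a listed bin raises the share on both sides, and these genes were not matched in length. The ratio was 1.33 (1.16 to 1.52) against genes within the length range of the members and 1.48 (1.29 to 1.69) against genes with at least 30 exons. In introns the ratio at the same G+C was 1.35 (1.27 to 1.45), with 858 of 19850 bins listed. Col23a1 alone held 185 of these 858 on 1407 intron bins, and the ratio without it was not computed. In exon sequence outside the coding sequence, not matched in G+C, 20 of 520 bins were listed. This was 3.85% (2.50 to 5.87), against 4.46% in other genes.

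The share of coding bins with H3K9me3 was compared between 8 classes of G+C and was higher in collagen genes than in other genes in 6 of them. Col2a1, with 33 listed coding bins, is included, and the classes were not compared without it. In the 4 classes below 50% G+C the collagen shares were 1.68%, 4.04%, 4.89% and 5.71%, against 1.47%, 2.08%, 2.64% and 4.01% in other genes. At 50 to 55% G+C, 10.3% (8.10 to 12.9) of collagen coding bins were listed, against 6.09% in other genes. At 55 to 60% the share was 9.08% (7.15 to 11.5) against 8.11%. At 60 to 65% it was 7.61% (4.67 to 12.2) against 12.6%, and at 65% and above 1 of 18 bins was listed (5.56%, 0.988 to 25.8), against 37.9% in other genes. The intervals of the collagen shares in the 4 classes from 50% up overlap. Listed coding bins had a median G+C of 53.5% and those not listed 51.5%. GGN codons filled 18.99% of the coding bases in listed bins and 20.6% in the others.

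H3K36me3 touched coding sequence in 3 members (7.32%, 2.52 to 19.4), against 32.0% of all genes, and in 34.1% of genes of the same length. Of 2654 coding bins, 58 were listed (2.19%), where coding bins of the same G+C gave an expected 26.6%, a ratio of 0.0821 (0.0637 to 0.106). Col18a1 held 55 of the 58, on 64 coding bins, and without it the ratio was 0.00437. Among genes that carry H3K36me3 the ratio was 0.436 (0.347 to 0.539). The ratio in introns was 0.123 (0.102 to 0.148). In other genes the share of coding bins with H3K36me3 went from 10.3% below 35% G+C to 33.9% at 60 to 65%, and was 17.8% at 65% and above. In collagen genes, Col18a1 included, it stayed at or below 3.55% in every class.

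**Figure D5:**
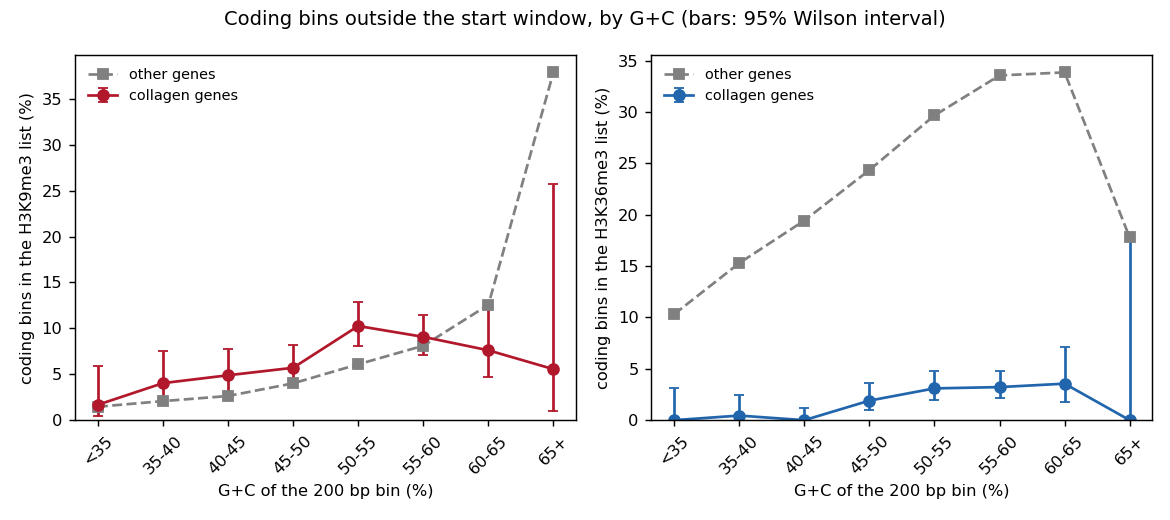
Share of coding bins outside the start window in the H3K9me3 list (left) and the H3K36me3 list (right), in percent, by the G+C of the bin, for collagen genes (circles, 95% Wilson intervals) and other genes (squares). For H3K9me3 the collagen genes, Col2a1 included, were above other genes in 6 of 8 classes, among them 50 to 55% G+C (10.3% against 6.09%). They were below other genes in the other 2, among them 60 to 65% (7.61% against 12.6%).

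The members were also compared among themselves. Across the 41 genes the rank correlation of the covered share with the G+C of the gene was 0.52, with coding G+C 0.40, with the share of GGN codons 0.04 and with exon number −0.06. For the number of H3K9me3 bins it was 0.11 with the G+C of the gene, 0.09 with coding G+C and 0.44 with gene length, against −0.15 for the covered share with gene length. These are descriptions across genes that come from the same lists and share their base composition with their surroundings. The 14 genes with the highest coding G+C (61.3 to 66.1%) had 9.87% of their bins and 9.72% of their coding bins listed, the 13 in between 3.73% and 6.29%, and the 14 with the lowest (49.0 to 57.1%) 3.17% and 5.97%. Without Col2a1, left out after seeing the data, the values of the first group were 8.94% and 6.66%. Col23a1 is in this group too and held 191 of its 551 listed bins, Col2a1 counted. From highest to lowest coding G+C the groups had median lengths of 38.15, 105 and 132.1 kb, and they were not matched in length. The 8 genes with neither mark had a median length of 34.8 kb and a median whole-gene G+C of 42.1%, against 114.4 kb and 48.1% in the 33 with H3K9me3.

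Exact copies of the central 50 bases were rare in the listed bins, while repeats that differ in sequence were not counted. Reads with more than 5 alignments had been removed, and of the 1152 H3K9me3 bins in collagen genes 13 (1.13%) had their central 50 bases elsewhere in the genome. Of the 177 H3K36me3 bins it was 0, and over all bins of collagen genes 3.44%. In total 218 H3K9me3 regions touched collagen genes, with a median width of 800 bp. Of these, 76 held a coding bin outside the start windows and 125 were wholly intronic.

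The enzymes and chaperones that make collagen were set beside the collagen genes. Of 29 genes named for the hydroxylation, folding, cleavage and cross-linking of collagen, 28 were found, and 13 (46.4%) held H3K36me3, 20 (71.4%) H3K9me3 and 6 (21.4%) both. All autosomal genes had 35.2%, 41.4% and 12.6%. Genes of the same length had 43.2%, 52.7% and 18.2%, and the median length in this list was 29.3 kb. P4ha1, which encodes a catalytic subunit of prolyl 4-hydroxylase, and P4hb, which encodes the subunit common to its forms, held 61 and 55 H3K36me3 bins, which for P4hb was 84.6% of the gene. The genes of the other catalytic subunits, P4ha2 and P4ha3, held no H3K36me3 and 16 and 8 H3K9me3 bins. Plod3, a lysyl hydroxylase, held 33, and Glt25d1, a collagen galactosyltransferase, held 62 H3K36me3 and 30 H3K9me3 bins with 30 bins in both lists. The propeptidase gene Adamts2 held 105 H3K9me3 and 3 H3K36me3 bins. The cross-linking genes Lox, Loxl1, Loxl2 and Loxl4 held 10, 6, 26 and 17 H3K9me3 bins and no H3K36me3, while the related Loxl3 held 7 H3K36me3 bins and no H3K9me3 inside the gene. An H3K9me3 region lay within 1 kb of the start of Loxl3, as it did for Lox, Loxl1 and Loxl2. Leprel2 held neither mark.

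The same was done for other genes of the basement membrane. Of 16 genes for laminin chains and associated proteins, 10 (62.5%) held H3K36me3, 11 (68.8%) H3K9me3 and 7 (43.8%) both, against 35.2%, 41.4% and 12.6% of all genes. Genes of the same length had 41.5%, 66.1% and 22.2%, and the median length in this list was 64.05 kb. Hspg2, the perlecan gene, held 347 H3K36me3 bins over 68.0% of its length, Lama5 216, Nid2 208, Lama1 201 and Lamc1 139. Lama1, Lamb1 and Lamc1 encode the chains of the laminin of the early embryo, and Lamb1 held 7 H3K36me3 bins. Their partners in the basement membrane, Col4a1 and Col4a2, held 0. Agrn held 113 H3K36me3 and 94 H3K9me3 bins, with 94 in both lists, and Lama2 and Lamb3 held neither mark. These lists were put together with earlier results of these data known, and whether they differ from the collagen genes was not tested.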

How the data were processed

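WT and G34R mouse ES cells were profiled by ChIP-seq for H3K9me3 and H3K36me3, with 1 library per group. The authors aligned the reads to mm9 with Bowtie 1.0.0 (no more than 5 alignments), removed duplicates, and in SeqMonk scaled the reads of 200 bp bins to library size and matched the distributions of the cell types. Genic bins above the 95th percentile in WT or G34R cells were joined within 100 bp with bedtools 2.20.1, and regions of extreme count were removed. The methods also name the removal of merged regions above a size limit, whereas the narrowest deposited region is 600 bp wide, wider than that limit, so how the limit was applied is not clear. The deposited lists hold chromosome, start and end, so that depth is unknown and WT and G34R were not compared.

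Genes, exons and coding sequence came from GENCODE vM1 on NCBIM37. Every bin touching a gene was placed as start (within 1 kb of the gene start), coding, other exon or intron, in that order. Each member was compared with non-collagen genes within a factor of 1.2 in length, and coding bins with coding bins in the same class of G+C (5 percentage points). Intervals for ratios carry the counting error of the collagen genes alone. Exact copies of the central 50 bases of each bin were counted on both strands of chromosomes 1 to 19 and X. Python 3 with numpy was used, and overlaps and ratios were tested on simulated data. The genes named in full were the 6 with the most H3K9me3 bins, all with H3K36me3 or a bin in both lists, and the type IV pairs. The members and lists were chosen with earlier results of these data known.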

Additional observations from a re-analysis of the deposited data

How the results depend on the processing

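For the 13 results examined, 56 alternatives were tried, 7 of them chosen after seeing the data, and 41 left a count within 1.5 times, or a share or ratio within its interval. With regions of at least 1 kb, 2 collagen genes held H3K36me3 and 2 both marks, and the H3K9me3 ratio to genes of the same length was 1.39, against 1.35 when summed exon length was matched. The H3K36me3 covered share was 0.0617% without Col18a1 and 0.613% without bins that touch another gene, and the H3K9me3 share was 4.41% without Col23a1. The H3K36me3 ratio in coding bins at the same G+C was 0.00437 without Col18a1 and 0.436 among genes that carry the mark. The H3K9me3 ratio in coding bins was 0.863 among genes that carry the mark, which reverses its direction in a comparison not matched in length. It was 1.06 without Col2a1 and 1.48 against genes with at least 30 exons. With bins at least 50% coding it was 1.095, and its interval of 0.857 to 1.39 includes 1. In the 14 genes with the highest coding G+C, 6.66% of coding bins held H3K9me3 without Col2a1, against 9.72%. H3K36me3 lay near a start in 1 gene with the starts of all transcripts (Col18a1) and in 1 with a window of 2 kb (Col11a2, where the region lies upstream of the gene and outside it). The cause of these differences was not tested. No paired analysis was possible because each group is 1 library and no result comes from a test. The lists carry no read values, so depth limits every count to an unknown extent, and a gene without a bin may hold the mark below the threshold of the authors.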
